A study of Mus musculus with 6 samples.

Results

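The genes described here write, copy, read and remove DNA methylation. They are the DNA methyltransferases Dnmt1, Dnmt3a and Dnmt3b, the Dnmt1 recruiter Uhrf1, the TET dioxygenases Tet1, Tet2 and Tet3, and the methyl-CpG binding proteins Mbd1 and Mbd2. The rule that chose them names symbols and uses no measured value, although it was set with earlier results of these data known, and they are 9 of the 34199 genes counted in the bulk RNA-seq libraries. All 9 passed the filter on low counts, which left 12460 genes for testing.

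The study asked what the histone chaperone CAF-1 does for the identity of myeloid progenitors. Its cells were HOXA9-immortalized granulocyte-macrophage progenitors (iGMPs), a C57Bl/6 mouse line in which a fusion of HOXA9 to the estrogen receptor blocks differentiation while estradiol is present and a GFP reporter is driven by the Lysozyme promoter. Each of 3 groups had 2 libraries, and all were taken at 24 h from cells grown with stem cell factor. For CAF-1 OFF, 500 µM IPTG switched on a lentiviral shRNA against Chaf1b, a CAF-1 subunit, in medium with estradiol at 150 ng/ml. The control cells were treated with IPTG and kept in estradiol, and the study's methods describe their vector as carrying a stuffer sequence in place of the hairpin. For HOXA9 OFF, the cells were washed free of estradiol, which inactivates the fusion protein. The labels state neither the IPTG dose of the control nor whether the HOXA9 OFF cells carried a vector or saw IPTG, so these features cannot be told apart from estradiol in that comparison. The lines were clonal by the study's methods, and the study mentions 2 independent sub-clones for RNA-seq of a later time. If the control was a separate clone, as those methods describe, clone and hairpin cannot be told apart in CAF-1 OFF against control. For the 24 h libraries the labels do not say whether the 2 of a group came from separate cultures or sub-clones, and if they did not the p-values measure only the spread between these libraries, which may be technical.

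Methylation of cytosine in CpG dinucleotides is copied at each cell division by DNMT1, which UHRF1 brings to the hemimethylated DNA behind the replication fork, and is laid down at new sites by DNMT3A and DNMT3B. The TET enzymes oxidize the methyl mark, which starts its removal, and MBD1 and MBD2 bind methylated DNA and recruit repressors. In blood formation Dnmt3a and Tet2 are known for their mutation in myeloid malignancy, and CAF-1 places new histones at the same replication forks where DNMT1 and UHRF1 work.

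The promoters of these genes hold the CpG dinucleotide that the enzymes act on in differing number. In RefSeq (build GRCm38.p6) 7 of the 9 genes matched, with 12 start sites, and Mbd1 and Mbd2 did not match. The 250 bases upstream of each site were read, and each of the 12 windows was found once, letter for letter, in the mm9 assembly (NCBIM37), whose coordinates are given here. The windows of the 4 genes with a single RefSeq start site are shown because they include both genes that fell in HOXA9 OFF (Dnmt3b and Tet1) beside the TET genes with higher values there (Tet2 and Tet3). Each reads 5′ to 3′ on the gene's own strand and ends at the base before the start site, with CpG in capitals. They lie at chr2:153474935-153475184 on the plus strand (Dnmt3b) and, on the minus strand, at chr10:62350073-62350322 (Tet1), chr3:133207355-133207604 (Tet2) and chr6:83391673-83391922 (Tet3).
Dnmt3b: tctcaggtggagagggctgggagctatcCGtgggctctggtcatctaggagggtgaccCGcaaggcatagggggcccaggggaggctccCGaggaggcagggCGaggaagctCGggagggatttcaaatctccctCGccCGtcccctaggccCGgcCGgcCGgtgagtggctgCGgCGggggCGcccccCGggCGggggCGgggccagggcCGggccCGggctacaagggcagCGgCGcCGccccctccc
Tet1: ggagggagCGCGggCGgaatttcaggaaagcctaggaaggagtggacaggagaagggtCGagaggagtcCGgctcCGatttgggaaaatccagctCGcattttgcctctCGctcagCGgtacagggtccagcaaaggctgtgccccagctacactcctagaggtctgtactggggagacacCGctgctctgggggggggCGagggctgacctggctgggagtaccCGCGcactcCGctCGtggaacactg
Tet2: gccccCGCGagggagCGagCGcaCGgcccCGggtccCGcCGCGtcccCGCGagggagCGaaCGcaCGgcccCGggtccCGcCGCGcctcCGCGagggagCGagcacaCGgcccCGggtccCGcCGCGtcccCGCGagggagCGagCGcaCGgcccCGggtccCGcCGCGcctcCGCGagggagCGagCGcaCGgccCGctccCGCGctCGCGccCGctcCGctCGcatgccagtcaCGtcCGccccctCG
Tet3: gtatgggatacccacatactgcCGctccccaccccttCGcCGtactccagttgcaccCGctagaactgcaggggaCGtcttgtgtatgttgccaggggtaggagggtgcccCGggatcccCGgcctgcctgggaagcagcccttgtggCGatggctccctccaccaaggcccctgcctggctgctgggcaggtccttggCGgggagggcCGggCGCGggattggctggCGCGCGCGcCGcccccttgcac

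These windows hold 21 CpG (Dnmt3b), 15 (Tet1), 51 (Tet2) and 17 (Tet3), against a median of 6 over the 32851 windows of all RefSeq start sites. Over the 12 windows the count ran from 2, in 1 of the 3 windows of Dnmt1, to the 51 of Tet2. The Tet2 window, with 83.6% G and C and a repeated block of nearly the same letters, has a CpG count reached by 0.067% of all windows. The genes differ in how the annotations place their starts. For Tet2 and Tet3 the window ends right at the start of the GENCODE gene model, whereas the RefSeq start of Tet1 lies 11794 bases inside the GENCODE gene.

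Short motifs were searched for on both strands as plain letters. The E2F letters TTTGGCGC, TTTCGCGC, TTTCCCGC and TTTGCCGC stood in 2 windows, 1 of Dnmt1 and 1 of Uhrf1, and in 1.86% of all windows. GGGCGG, bound by SP factors, stood in 10 of the 12 windows and in 32.7% of all, and CCAAT in 5 of the 12 and in 33.8% of all. The ETS letters CCGGAA (12% of all windows), the HOX-MEIS letters TGATTTAT and TGATTGAC (1.53%) and the C/EBP letters TTGCGCAA, TTGCACAA and TTGTGCAA (1.06%) were in none of the 12. Matches of different motifs may overlap, and a match is a description and not a site of binding.

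The gene models place Dnmt1 on chromosome 9 (20711650 to 20757317, minus strand), Dnmt3a on chromosome 12 (3806007 to 3914443, plus), Dnmt3b on chromosome 2 (153475186 to 153513466, plus) and Uhrf1 on chromosome 17 (56442744 to 56462909, plus). Tet1 spans 62267318 to 62361866 of chromosome 10, Tet2 spans 133126643 to 133207354 of chromosome 3 and Tet3 spans 83312367 to 83391672 of chromosome 6, all on the minus strand. Only Dnmt3a shares exon bases with another gene model, 133 bases with Gm10485 on the other strand, and although the library kit was directional, the strand setting of the counting is not stated, so how reads of these bases were assigned is not known.

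A library held 16773560 to 25170898 reads assigned to genes, so that 3 reads were worth 0.118 to 0.182 CPM (counts scaled to a common library size with TMM factors). The least covered value, Tet1 in HOXA9 OFF replicate 2, rested on 25 reads. Chaf1b, the target of the hairpin, was at 17.8 and 12.1 CPM in CAF-1 OFF against 89.9 and 105 in the control, which on the log2 scale is a difference of -2.71 ± 0.20 with its SE (adjusted p = 0.0198 by the quasi-likelihood test of edgeR), and at 64.6 and 61.4 CPM in HOXA9 OFF, where it was also called lower than in the control (-0.63 ± 0.18, adjusted p = 0.0396). Hoxa9 counts (276 and 214 CPM in the control, 356 and 362 in HOXA9 OFF) do not check the estradiol withdrawal, which acts on the protein. The markers were those of myeloid cells. T cell markers summed to 0.121 CPM or less in each library and B cell markers to 33.6 to 60.3 CPM, most of it Cd79b. The granulocyte and monocyte list summed to 7410 and 4740 CPM in the control and 9660 and 9220 in CAF-1 OFF. In HOXA9 OFF it summed to 14900 and 10600 CPM. Of its 14 genes, 12 were called higher in HOXA9 OFF than in the control, beside 13% of all genes, and in CAF-1 OFF 14 of 14 had higher values (median log2 fold change 1.17) with none called, 9 of them at an unadjusted p under 0.05, beside 1330 of the 12460 genes tested. Of 6 progenitor markers 5 were called lower in HOXA9 OFF, beside 8.97% of all genes, and Prtn3 had higher values there (log2 fold change 0.59, not called). Cd34, of this list, was at 484 and 507 CPM in HOXA9 OFF and between 1660 and 2130 in the other 4 libraries. In bulk RNA, fewer cells of a type and less RNA per cell cannot be told apart, and this holds for every level and difference given here.

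The 9 genes did not scatter evenly between replicates. In the control, replicate 1 was above replicate 2 for 9 of 9 genes, with a median log2 difference of 0.291, and in CAF-1 OFF replicate 1 was above replicate 2 for 2 of 9, with a median of -0.20, whereas about as many genes of the whole table lay on either side (49.9% in both groups). In HOXA9 OFF replicate 1 was above replicate 2 for 7 of 9 genes, with a smaller median of 0.0941. Control replicate 2 and CAF-1 OFF replicate 1, called the low libraries here, had the most reads of no unique place, 107 for every 100 reads assigned to genes against 89.6 to 100 in the other 4. HOXA9 OFF replicate 2, the lower of its group, had the fewest, 89.6. The part of these reads in the results was not tested. Values without both low libraries, an alternative chosen after seeing the data, are given beside the results of Uhrf1, Dnmt3b, Tet1, Tet2, Tet3, Mbd1 and Mbd2.

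**Figure D1:**
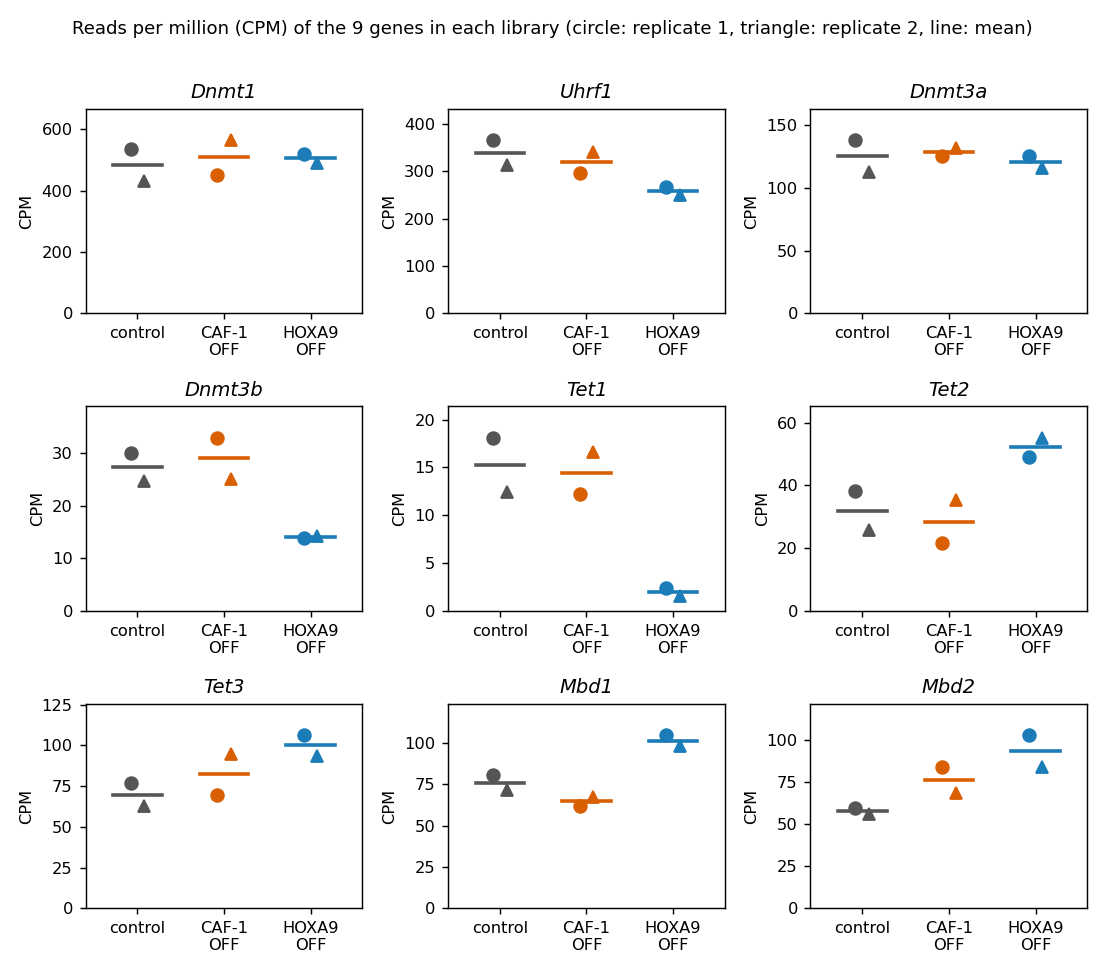
CPM (linear axes from 0) of each of the 9 genes in the control, CAF-1 OFF and HOXA9 OFF, with a circle for replicate 1, a triangle for replicate 2 and a line at the group mean. The HOXA9 OFF libraries lie below the other 4 for Dnmt3b, Tet1 and Uhrf1, and above them for Tet2, Mbd1 and Mbd2.

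In the control the copying machinery was by far the most abundant of these transcripts. Per kilobase of exon, Dnmt1 averaged 91.9 CPM and Uhrf1 79.8, followed by Mbd1 at 26.2, Mbd2 at 18, Dnmt3a at 7.53, Tet3 at 6.28, Dnmt3b at 5.36, Tet2 at 3.48 and Tet1 at 1.04. In this order the replicates of Dnmt1 and Uhrf1 overlapped, as did those of Dnmt3a and Tet3 and of Tet3 and Dnmt3b. The order depends on the length used. With the longest transcript in place of the union of exons, Uhrf1 (94.7) stood above Dnmt1, Mbd2 (29.6) above Mbd1 (26.8), and Dnmt3a, whose exon union of 16642 bases is longer than its longest transcript of 9685, stood at 12.9.

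In HOXA9 OFF the levels per kilobase of exon union ran from Dnmt1 (95.9) through Uhrf1 (60.9), Mbd1 (35), Mbd2 (29), Tet3 (9.02), Dnmt3a (7.24), Tet2 (5.66) and Dnmt3b (2.75) down to Tet1 (0.134), and no neighbours overlapped. With the longest transcript Dnmt3a (12.4) stood above Tet3 (9.17) and Mbd2 (47.7) above Mbd1 (35.8), again without overlap, so these places rest on the length used. In CAF-1 OFF the order by exon union was that of the control except for Mbd2 (23.6) and Mbd1 (22.4), whose replicates overlapped, and with the longest transcript Mbd2 (38.9) was above Mbd1 (22.9) there as in the control. The replicates of Dnmt3a (7.71) and Tet3 (7.43) overlapped there too, as did those of Tet3 and Dnmt3b (5.69).

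Against the control, 3 of the 9 genes were called in HOXA9 OFF (Tet1 and Dnmt3b lower, Mbd2 higher) and none in CAF-1 OFF. A gene was called when its fold change was at least 1.5 and its Benjamini-Hochberg adjusted p was under 0.05 over all genes tested. In HOXA9 OFF against control 22% of all genes were called (13% higher and 8.97% lower), and the 3 of 9, with 1 higher and 2 lower, stand against that share. In CAF-1 OFF against control 0.0321% of all genes were called by the quasi-likelihood test (0.0241% higher and 0.00803% lower), 4 genes in all, so that 0 of 9 is near the background. At an unadjusted p under 0.05, 1 of the 9 genes (Mbd2) and 1330 of all genes passed in CAF-1 OFF, and DESeq2 and the edgeR exact test, which called 192 and 236 of all genes, called 0 of the 9. In CAF-1 OFF against HOXA9 OFF 3 of 9 were called (2 higher, 1 lower), against 22.1% of all genes (9.56% higher and 12.6% lower). The comparisons share libraries, so each gene's values are given side by side and no overlap between them is counted as support.

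**Figure D2:**
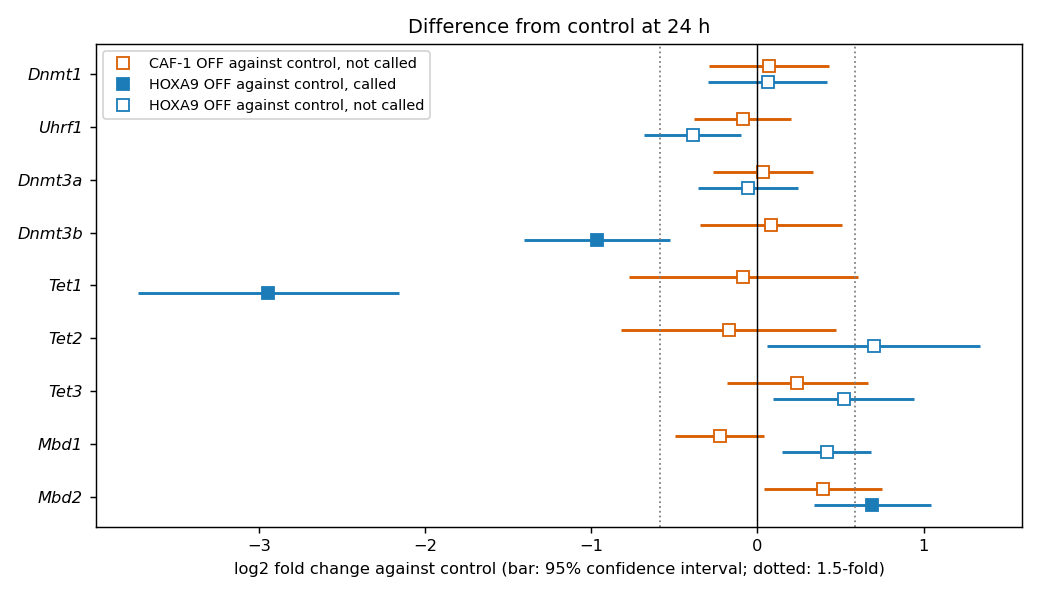
Log2 fold change against the control of the 9 genes for either treatment, CAF-1 OFF or HOXA9 OFF, with 95% confidence intervals, filled squares for called genes and dotted lines at 1.5-fold. Dnmt3b, Tet1 and Mbd2 are filled for HOXA9 OFF, and each CAF-1 OFF square is open.

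Dnmt1, the maintenance methyltransferase, was at 537 and 431 CPM in the control, 452 and 565 in CAF-1 OFF and 518 and 492 in HOXA9 OFF. The 3 groups overlapped and their means lay close together. The log2 fold change was 0.07 ± 0.15 (SE) in CAF-1 OFF, with a 95% interval of -0.29 to 0.43, and 0.06 ± 0.15 in HOXA9 OFF, with an interval of -0.30 to 0.42, so that a change beyond 1.5-fold either way lay outside both intervals. Its sign turned under other settings and is not read.

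Uhrf1, which recognizes hemimethylated CpG and brings DNMT1 to it, was at 366 and 314 CPM in the control, 297 and 342 in CAF-1 OFF and 268 and 251 in HOXA9 OFF. The HOXA9 OFF libraries were both below the other 4. The difference from the control, -0.39 ± 0.12 on the log2 scale (1.31-fold lower), did not pass the test (adjusted p = 0.0534; -0.50 and 0.0487 without the 2 low libraries, with the fold change still under the minimum), and that of CAF-1 OFF was -0.09 ± 0.12 (adjusted p = 0.844). Per kilobase, Uhrf1 stood at 0.842 and 0.899 times Dnmt1 in the control, 0.812 and 0.747 times in CAF-1 OFF and 0.638 and 0.631 times in HOXA9 OFF. The groups did not overlap in this ratio, which was not tested.

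Genes of S phase, the time in which DNMT1 and UHRF1 work, also had lower values in HOXA9 OFF. Of a list of 20 replication genes, 19 had lower values in HOXA9 OFF than in the control, with a median log2 fold change of -0.18 against -0.00349 over all genes, and 2 were called: Gins2, a subunit of the replicative helicase complex (fell by 0.72 on the log2 scale, adjusted p = 0.0101), and Tyms, thymidylate synthase (fell by 0.61, adjusted p = 0.00675). These 2 of 20 are near the 8.97% of all genes called lower in that comparison. The list summed to 6010 and 5500 CPM in the control and 5630 and 5720 in CAF-1 OFF. In HOXA9 OFF it summed to 5130 and 4550 CPM. None of 12 mitotic genes was called by the quasi-likelihood test of edgeR (1 at an unadjusted p under 0.05), and their median was -0.06. Whether cell cycle position plays a part in the Uhrf1 values was not tested.

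The de novo methyltransferases parted in HOXA9 OFF. Dnmt3a was at 138 and 113 CPM in the control, 125 and 132 in CAF-1 OFF and 125 and 116 in HOXA9 OFF. All groups overlapped, and the log2 fold changes were 0.03 ± 0.13 in CAF-1 OFF (95% interval -0.27 to 0.33) and -0.06 ± 0.13 in HOXA9 OFF (-0.36 to 0.24). Dnmt3b was at 30.1 and 24.7 CPM in the control, 33 and 25.1 in CAF-1 OFF and 13.8 and 14.2 in HOXA9 OFF. The HOXA9 OFF libraries lay well below the other 4 and close to each other. Dnmt3b fell 1.95-fold in HOXA9 OFF against control (log2 fold change -0.97 ± 0.18, adjusted p = 0.00988) and in CAF-1 OFF stood 2.07-fold above HOXA9 OFF (1.05 ± 0.18, adjusted p = 0.00782). Between CAF-1 OFF and control the difference was 0.08 ± 0.18 (adjusted p = 0.91, interval -0.34 to 0.51). The call in HOXA9 OFF against control was lost without control replicate 1 (-0.82, adjusted p = 0.0567) or without HOXA9 OFF replicate 1 (-0.95, adjusted p = 0.0592), and it was kept without the 2 low libraries (-1.10, adjusted p = 0.0195).

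In the make-up of the DNMT transcripts the fall of Dnmt3b showed as a smaller share. Dnmt3b was 5.06% and 5.17% of the summed DNMT level per kilobase in the control, 6.47% and 4.09% in CAF-1 OFF and 2.49% and 2.71% in HOXA9 OFF. Dnmt1 supplied 87.8% and 87.6%, 86% and 89.3%, and 90.6% in both libraries, in the same order. The ratio of Dnmt3a to Dnmt3b was 1.41 and 1.40 in the control, 1.16 and 1.61 in CAF-1 OFF and 2.79 and 2.49 in HOXA9 OFF. Dnmt3l, a partner of the de novo enzymes without catalytic activity, went the other way from Dnmt3b: it was at 19.6 and 14.9 CPM in the control, 15.1 and 17 in CAF-1 OFF and 35.9 and 28.6 in HOXA9 OFF, a rise of 0.90 ± 0.19 on the log2 scale (adjusted p = 0.015).

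Tet1 showed the largest change of the 9 genes. It was at 18.1 and 12.4 CPM in the control (461 and 214 reads), 12.2 and 16.7 in CAF-1 OFF (235 and 329 reads) and 2.41 and 1.52 in HOXA9 OFF (50 and 25 reads). The HOXA9 OFF libraries were far below the other 4, which overlapped. Tet1 fell 7.70-fold in HOXA9 OFF against control (log2 fold change -2.94 ± 0.33, adjusted p = 0.00175) and in CAF-1 OFF stood 7.26-fold above HOXA9 OFF (2.86 ± 0.33, adjusted p = 0.00202). This call was made under each alternative and with each library left out, where the log2 fold change against control ran from -3.33 to -2.65, and it was -3.19 without the 2 low libraries (adjusted p = 0.0115). In CAF-1 OFF against control the difference was -0.08 ± 0.29 (adjusted p = 0.947), with an interval of -0.77 to 0.60 that leaves room for a change past 1.5-fold either way.

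Tet2 and Tet3 had higher values in HOXA9 OFF, without passing the test. Tet2, the TET gene most often mutated in myeloid disease, was at 38.3 and 25.7 CPM in the control, 21.6 and 35.2 in CAF-1 OFF and 49 and 55.2 in HOXA9 OFF. The HOXA9 OFF libraries were above the other 4, which ranged widely within each group. The log2 fold change was 0.70 ± 0.27 in HOXA9 OFF (adjusted p = 0.0955) and -0.17 ± 0.27 in CAF-1 OFF (adjusted p = 0.868), and in CAF-1 OFF against HOXA9 OFF it was -0.87 ± 0.27 (adjusted p = 0.0504). Over the alternatives the adjusted p of Tet2 in HOXA9 OFF against control ran from 0.00326 to 0.135. It was called by DESeq2, with no filter, with the 4 libraries alone, and without CAF-1 OFF replicate 1 (adjusted p = 0.0426) or CAF-1 OFF replicate 2 (0.0437), libraries that enter this comparison only through the shared spread. Without the 2 low libraries its difference was 0.44 (adjusted p = 0.109). In CAF-1 OFF against HOXA9 OFF the difference shrank to -0.56 without CAF-1 OFF replicate 1 (adjusted p = 0.161) and to -0.56 without both low libraries (adjusted p = 0.0675), and it was not called without HOXA9 OFF replicate 1 (0.11) or HOXA9 OFF replicate 2 (0.16). The adjusted p was 0.0213 without CAF-1 OFF replicate 2, 0.0433 without control replicate 1 and 0.0409 without control replicate 2, and Tet2 was also called there by DESeq2, by the exact test, with the size factors of DESeq2, with no filter and with the 4 libraries alone.

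Tet3 was at 76.8 and 62.6 CPM in the control, 69.8 and 94.9 in CAF-1 OFF and 106 and 93.7 in HOXA9 OFF. CAF-1 OFF replicate 2 reached the HOXA9 OFF values while replicate 1 lay in the control range. The log2 fold changes were 0.52 ± 0.18 in HOXA9 OFF (adjusted p = 0.0689) and 0.24 ± 0.18 in CAF-1 OFF (adjusted p = 0.692). Without the 2 low libraries they were 0.38 (adjusted p = 0.116) and 0.31 (adjusted p = 0.751).

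Summed per kilobase, the TET level was 12.3 and 9.28 CPM in the control, 9.48 and 13.5 in CAF-1 OFF and 15.1 and 14.6 in HOXA9 OFF, so that the sum did not fall with Tet1. Tet1 was 10% and 9.1% of that sum in the control, 8.76% and 8.38% in CAF-1 OFF and 1.09% and 0.708% in HOXA9 OFF. Tet3 was the largest part in each library, from 56.2% to 66.5%. Tet2 stood at 3.38 and 3.30 times Tet1 in the control, 2.83 and 3.38 times in CAF-1 OFF, and 32.5 and 58.2 times in HOXA9 OFF. In this ratio the low libraries, control replicate 2 (3.30) and CAF-1 OFF replicate 1 (2.83), lay near their partners.

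**Figure D3:**
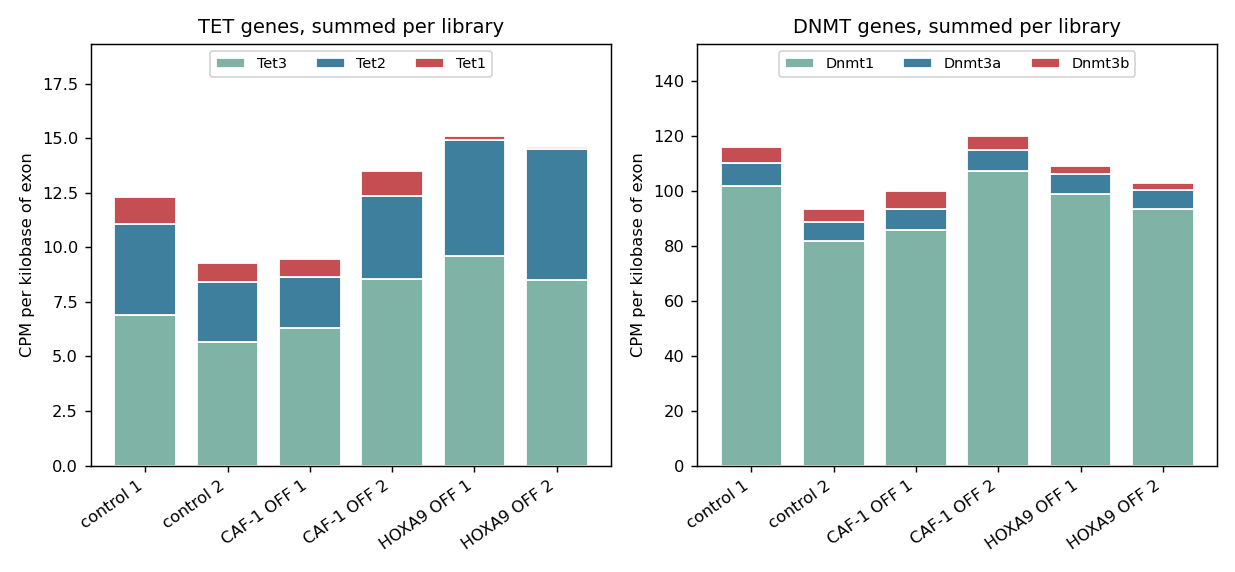
Stacked levels per kilobase of exon (CPM per kilobase) of the TET genes (left) and of the DNMT genes (right) in each library. The Tet1 part is 8.38% to 10% of the TET stack in the control and CAF-1 OFF libraries and 1.09% or less in HOXA9 OFF, and Dnmt1 makes up 86% to 90.6% of each DNMT stack.

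The methyl-CpG readers Mbd1 and Mbd2, both on chromosome 18 and both on the plus strand (74427926 to 74442339 and 70727843 to 70785785), had higher values in HOXA9 OFF than in the control. Mbd2, which brings the NuRD repressor to methylated DNA, was at 59.4 and 56 CPM in the control, 83.6 and 68.3 in CAF-1 OFF and 103 and 83.9 in HOXA9 OFF. The control libraries were the lowest of the 6, and CAF-1 OFF lay between, its higher library just under the lower HOXA9 OFF library. Mbd2 rose 1.61-fold in HOXA9 OFF (log2 fold change 0.69 ± 0.15, adjusted p = 0.015). In CAF-1 OFF its difference, 0.39 ± 0.15 (1.31-fold), was the only difference among the 9 genes below an unadjusted p of 0.05 and missed the threshold after adjustment (adjusted p = 0.416). It shrank to 0.24 without CAF-1 OFF replicate 1 (adjusted p = 0.578) and to 0.20 without both low libraries (adjusted p = 0.826). The call in HOXA9 OFF was lost without control replicate 1 (adjusted p = 0.0625), without control replicate 2 (0.0919), without HOXA9 OFF replicate 1 (0.101) and without the 2 low libraries together (0.0604), while the log2 fold change over these ran from 0.53 to 0.73.

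Mbd1, which binds methylated and unmethylated CpG, was at 80.5 and 71.4 CPM in the control, 62.2 and 67.6 in CAF-1 OFF and 105 and 98.2 in HOXA9 OFF. The 3 groups did not overlap, with CAF-1 OFF lowest. In HOXA9 OFF against control its difference was 0.42 ± 0.11 (1.34-fold), with an adjusted p of 0.0318 but a fold change under the minimum, and in CAF-1 OFF against control it was -0.23 ± 0.11 (adjusted p = 0.534). Without the 2 low libraries these were 0.33 (adjusted p = 0.115) and -0.25 (adjusted p = 0.764). Mbd1 was called in CAF-1 OFF against HOXA9 OFF, where it was 1.56-fold lower (-0.65 ± 0.11, adjusted p = 0.00774). That call was lost without HOXA9 OFF replicate 1 (-0.59, adjusted p = 0.0556), and by the fold minimum with library size alone (-0.57) or without the 2 low libraries (-0.58). Per kilobase, Mbd2 stood at 0.665 and 0.707 times Mbd1 in the control, 1.21 and 0.911 times in CAF-1 OFF and 0.882 and 0.770 times in HOXA9 OFF, so that the ratio was lowest in the control libraries. This ratio was not tested.

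Counted together, 2 of the 9 genes (Mbd1 and Mbd2) had groups that did not overlap in CAF-1 OFF against control, where 40.1% of all genes did not overlap, and 7 of 9 did not overlap in HOXA9 OFF against control, where 71% of all genes did not. The median log2 fold change of the 9 genes was 0.03 for CAF-1 OFF and 0.06 for HOXA9 OFF, with 5 genes above 0 and 4 below in either comparison.

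The partners of these genes were described from lists taken as a whole. In CAF-1 OFF against control no gene was called in any of the pathway lists by the quasi-likelihood test. The lowest p of the methyl donor list belonged to Mat2b, a regulatory subunit of methionine adenosyltransferase (log2 fold change -0.44 ± 0.09, adjusted p = 0.205), and that of the S phase list to Rrm2, the ribonucleotide reductase subunit (0.55 ± 0.10, adjusted p = 0.153). At an unadjusted p under 0.05, 5 of 14 methyl donor genes and 3 of 20 S phase genes passed, beside 1330 of the 12460 genes tested, and nothing is read from these counts.

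In HOXA9 OFF against control 5 of 14 genes that supply S-adenosylmethionine or 2-oxoglutarate were called lower and 1 higher, against 8.97% and 13% of all genes. The median log2 fold change of the list was -0.50. Shmt1 and Shmt2, the serine hydroxymethyltransferases that feed carbon into the folate cycle, fell by 0.91 ± 0.11 (adjusted p = 0.00224) and 1.03 ± 0.18 (adjusted p = 0.00725) on the log2 scale. Ahcy, which clears the S-adenosylhomocysteine that inhibits methyltransferases, fell by 0.91 ± 0.12 (adjusted p = 0.00277). Its libraries were at 49.8 and 54.6 CPM in the control, 45.8 and 41.1 in CAF-1 OFF and 27.4 and 28.1 in HOXA9 OFF. Idh1, which makes the 2-oxoglutarate that TET enzymes consume, was the gene called higher, at 281 and 244 CPM in the control, 329 and 345 in CAF-1 OFF and 536 and 566 in HOXA9 OFF (1.07 ± 0.11, adjusted p = 0.00135). Idh2, its mitochondrial counterpart, was called lower (-0.70 ± 0.11, adjusted p = 0.00471), from 619 and 658 CPM in the control to 396 and 392, so that the sources of 2-oxoglutarate did not move one way. Idh3a, a subunit of the NAD-dependent enzyme, differed by -0.58 ± 0.10 (adjusted p = 0.00674), just under the fold minimum. Mat2a, a methionine adenosyltransferase, was also called lower (-0.79 ± 0.10, adjusted p = 0.00263), from 501 and 470 CPM in the control to 268 and 294. Idh2, Idh3a and Mat2a were chosen after their values were seen.

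Other pathway lists gave 1 called gene each, which for the lists of 8, 12 and 14 genes is a smaller share than the 22% of all genes called, and nothing is read from these counts about the lists. Among 8 partners of maintenance methylation, 7 were lower in HOXA9 OFF (median -0.22) and Cdca7, which works with the remodeler HELLS, fell by 1.14 ± 0.12 (adjusted p = 0.00138), from 266 and 257 CPM in the control to 129 and 109. Among 8 other methyl-CpG readers tested, with a median of 0.26, Zbtb4 rose by 1.19 ± 0.28 (adjusted p = 0.0212) at a low level of 2.36 and 1.97 CPM in the control and 5.21 and 4.73 in HOXA9 OFF. Of 4 CXXC-domain genes tested, Cxxc5 fell by 1.46 ± 0.19 (adjusted p = 0.00293), from 38.4 and 40.5 CPM to 15 and 13.6.

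Among 14 genes of active demethylation and base excision tested, with a median of -0.23, the abasic site nuclease Apex1 fell by 0.85 ± 0.12 (adjusted p = 0.00393). Of 12 NuRD subunits, with a median of -0.14, Mta1 fell by 0.68 ± 0.15 (adjusted p = 0.0162), so that none of the NuRD list was called in the direction of Mbd2. Among the genes called in CAF-1 OFF against HOXA9 OFF, Cdca7 (1.03), Cxxc5 (1.80), Apex1 (0.66), Mta1 (0.64) and Shmt1 (1.01) were higher and Dnmt3l (-1.01) and Idh1 (-0.71) lower, all as log2 fold changes.

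**Figure D4:**
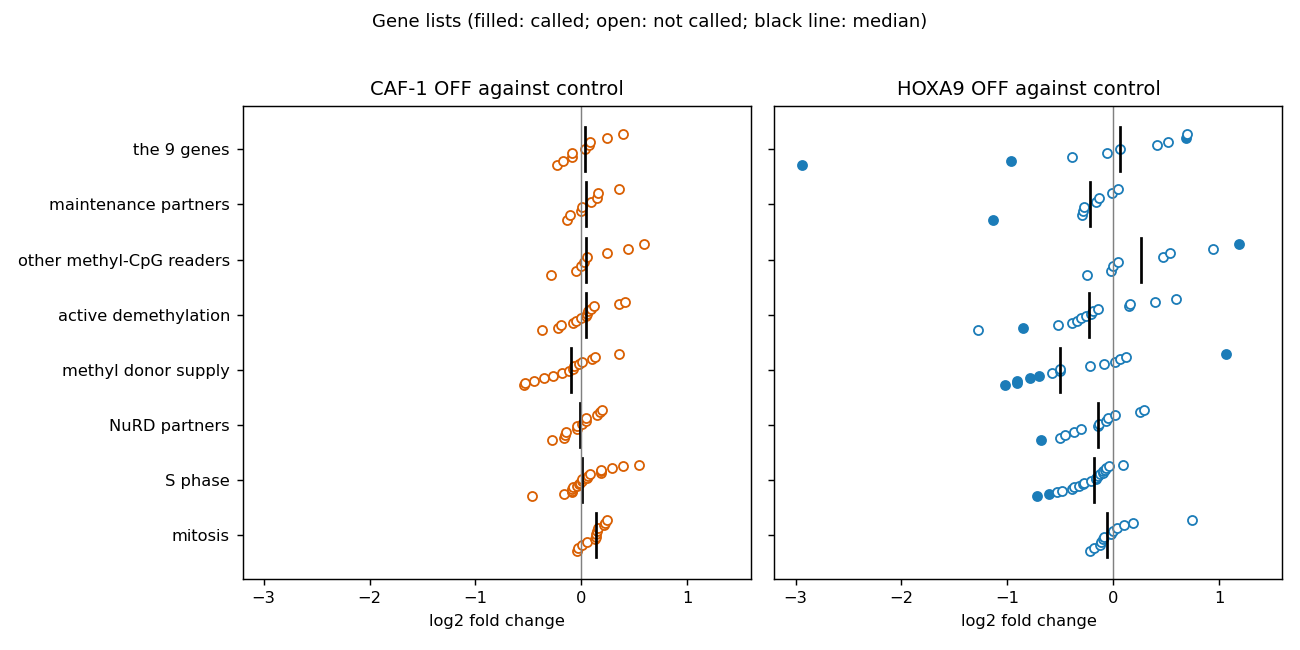
Log2 fold change against the control of the 9 genes and of each tested gene in 7 pathway lists, with CAF-1 OFF on the left and HOXA9 OFF on the right, filled where called, with a black line at each list's median. No point is filled on the left, and on the right the methyl donor list has the lowest median, -0.50.

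Germline genes that promoter methylation is known to silence, and imprinted genes, were at or near 0 reads for the most part. Of 15 germline genes found in the table, 5 had no read in any library and 2 passed the filter. Brdt, a testis bromodomain gene, had 32 and 21 reads in the control and 49 and 48 in CAF-1 OFF. In HOXA9 OFF it had 29 and 33, and it was not called (log2 fold change 1.00 ± 0.35 in CAF-1 OFF, adjusted p = 0.383). Tex101, the other gene tested, differed by -0.21 ± 0.63 in CAF-1 OFF against control (adjusted p = 0.935). Summed over the list, the level was 4 and 4.15 CPM in CAF-1 OFF and 2.2 and 3.89 in the control. In HOXA9 OFF it was 2.32 and 2.79. CAF-1 OFF was above the other 4 libraries, a difference that was not tested, and Brdt alone made up 2.55 and 2.43 CPM of the CAF-1 OFF sums. Tex19.1, too low to be tested and chosen after its values were seen, had 8 and 9 reads in CAF-1 OFF, 0 in both control libraries and 0 and 1 in HOXA9 OFF. Taf7l, too low and chosen likewise, had 5 and 6 reads in CAF-1 OFF, 5 and 28 in the control and 0 and 3 in HOXA9 OFF. Of 17 imprinted genes found, 9 had no read and 4 were tested, of which Igf2r was called lower in HOXA9 OFF, with 0 and 3 reads there against 41 and 299 in the control and 71 and 182 in CAF-1 OFF. The control replicates differed widely in this gene, and no fold change is given for it.

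The genes whose pattern over the 6 libraries came closest to each of the 9 were found by the root mean square difference of their centred log2 CPM, among 9606 genes with a mean of at least 5 CPM. For Tet1 these were Samd4, an RNA-binding repressor (0.142), Itga9, an integrin subunit (0.187), and Dusp6, a phosphatase of ERK (0.189). For Dnmt3b they were Fam65a (0.0798), Ahdc1 (0.104) and Lyar (0.108). For Mbd2 they were Mag (0.0407), Ppp3ca, a catalytic subunit of calcineurin (0.0606), and Tnfrsf21 (0.0661). For Tet2 they were Ankrd28 (0.0589), the acetyltransferase Ep300 (0.0757) and Mll5 (0.0889).

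For the other 5 genes the nearest gene was Ino80 for Dnmt1 (0.0234), Lin7c for Dnmt3a (0.027), Xpo7 for Uhrf1 (0.0285), Pwp1 for Mbd1 (0.0348) and Depdc5 for Tet3 (0.0476). Tet1 thus had the most distant nearest match of the 9 genes, and Dnmt1 the closest. The differences were not scaled to the size of each gene's own changes, so nothing is read from this order.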

How the data were processed

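RNA was measured by RNA-seq in 6 libraries of a mouse cell line, 2 in each of 3 groups taken from the labels. The authors aligned reads to mm9 with STAR and deposited HTSeq counts per gene symbol, which are whole numbers with no normalization. The libraries were made with a directional kit, and the strand setting of the counting, the annotation and the handling of overlapping genes are not given in the sources used here. Reads in the 5 tally lines (no feature, ambiguous, not unique and the like) were left out. Beside every 100 reads assigned to genes, 89.6 to 107 had no unique place.

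The 34199 genes were filtered with filterByExpr, and 12460 were fitted over all 6 libraries with edgeR 4.0.16 (R 4.3.3, TMM factors 0.954 to 1.03, quasi-likelihood test, prior count 2). Genes with a fold change of at least 1.5 and an adjusted p (Benjamini-Hochberg, all genes tested) under 0.05 were called. The SE is the log2 fold change divided by the root of F. Intervals are 95%. The fit was also run on simulated counts with changes of known size, and no result given here rests on that run. Levels per kilobase used GENCODE exons on NCBIM37. The count files hold no coordinates, so their gene models could not be compared.

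The 9 genes and the lists were chosen with earlier results of these data known. All 9 are named, and each list gives up to 4 called genes with the largest change and a mean of at least 1 CPM or, with none called, the gene with the lowest p; the text prints a part of them. For each of the 9, the 3 genes with the closest pattern were found. Alternatives were DESeq2 1.42.0, the edgeR exact test, other scalings, filters and call rules, the 4 libraries alone, a replicate block and leaving out each library. Replicates of a group differed by more than sampling noise (chi-square per degree of freedom 15.6 to 20.9), so none was a second sequencing of the same library. This value cannot tell separate cultures from separate libraries of 1 culture. With 2 libraries against 2, an exact permutation test cannot go below p = 0.333 and none was used.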

Additional observations from a re-analysis of the deposited data

How the results depend on the processing

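Over 11 alternatives and 6 fits that each left out 1 library, CAF-1 OFF against control had 0 of the 9 genes called, and Tet1 was called in both comparisons with HOXA9 OFF. In HOXA9 OFF against control 3 genes were called, 1 (Tet1) at 2-fold and an adjusted p under 0.01, and 1 to 4 with a library left out. Over all genes, CAF-1 OFF against control had 4 calls, and 192 by DESeq2, 236 by the edgeR exact test, 378 with no filter, 9 with the 4 libraries alone, 0 at 2-fold and an adjusted p under 0.01, 0 without the 2 low libraries together, and 0 to 10 with a library left out. In HOXA9 OFF against control, where 2740 were called, these counts were 987 at the stricter rule and 1602 to 2840 with a library left out, and in CAF-1 OFF against HOXA9 OFF, where 2755 were called, 948 and 1711 to 2718. The stricter rule lowers a count by construction, and the other causes were not tested.

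The replicate numbers are shared by the groups, but nothing says that they mark a pairing. Deviations of same-numbered libraries correlated at -0.178 (CAF-1 OFF and control), 0.456 (HOXA9 OFF and control) and 0.0329 (CAF-1 OFF and HOXA9 OFF). With the replicate block CAF-1 OFF against control had 2 calls, HOXA9 OFF against control 2680 and CAF-1 OFF against HOXA9 OFF 2684. Of the 9 genes 0, 3 and 3 were called with the block, the same genes as without it. With the numbers crossed, a pairing chosen after seeing the data, CAF-1 OFF against control had 71 calls.

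The direction of some differences that were not called turned, and the cause was not tested. For Dnmt1 in HOXA9 OFF against control the log2 fold change was -0.0188 with library size alone and -0.0890 without the 2 low libraries. Without them it was -0.0653 for Dnmt3a and -0.26 for Dnmt3b in CAF-1 OFF against control. With a library left out, the log2 fold change in CAF-1 OFF against control ran from -0.0807 to 0.24 (Dnmt1), -0.0953 to 0.19 (Dnmt3a), -0.13 to 0.29 (Dnmt3b), -0.19 to 0.0295 (Uhrf1), -0.32 to 0.22 (Tet1) and -0.55 to 0.15 (Tet2). In HOXA9 OFF against control it ran from -0.0893 to 0.22 (Dnmt1) and -0.19 to 0.0902 (Dnmt3a), and in CAF-1 OFF against HOXA9 OFF from -0.14 to 0.16 (Dnmt1). Fits that leave 1 library in a group assume that it varies like the others. The pathway lists were not refitted. Depth limited Tet1 most, with 50 and 25 reads in HOXA9 OFF.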

Other observations

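Mki67, a gene of proliferating cells and the mitotic gene with the lowest p in HOXA9 OFF against control, stood apart from its list there. Its log2 fold change was 0.74 ± 0.25 (edgeR quasi-likelihood adjusted p = 0.0673, not called), while the median of the 12 mitotic genes was -0.06. Kit, the receptor for the stem cell factor in the medium, was at 710 and 542 CPM in the control, 676 and 810 in CAF-1 OFF and 300 and 262 in HOXA9 OFF. The megakaryocyte and erythroid list summed to 25.5 and 25.8 CPM in the control and 69.2 and 35.1 in CAF-1 OFF. In HOXA9 OFF it summed to 74.4 and 80.2 CPM. The mast and basophil list summed to 165 to 203 CPM in the control and 587 and 229 in CAF-1 OFF. In HOXA9 OFF it was at 241 and 306 CPM. There, replicate 1 had the higher Mbd2 value (103 against 83.9 CPM) and the lower sum of both lists. CAF-1 OFF replicate 1, the higher Mbd2 library of its group, stood apart in Cpa3 (468 CPM against 178 in replicate 2) and Mcpt8 (107 against 44.1). These 2 genes of the mast and basophil list were chosen after their values were seen. The part of cells of these types in the Mbd2 values was not tested.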
